A study of Mus musculus with 8 samples.

Results

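Igfl3 encodes an insulin growth factor-like protein, and it is described here across sorted mouse keratinocytes with and without a Snail transgene. It is 1 gene of 19938 with a platform symbol of their own, measured by 1 probe set (10550482), and was chosen because these same arrays showed it raised in K14Snail cells and in Mts24 positive cells. Those comparisons are therefore given as descriptions, with no test. The 8 arrays, 1 per group, profiled back skin keratinocytes of CD1 mice that were 8 weeks old. Wild type mice were compared with K14Snail mice, which carry Snail, a transcriptional repressor, under the keratin 14 promoter that is active in basal keratinocytes. Cells were separated magnetically on CD34, which marks the follicle bulge on the cell surface, or on Mts24, an epitope on the Plet1 protein of upper follicle cells, and both the positive and the negative cells were profiled. RNA was pooled across mice of both sexes, 11 per group in the CD34 sort and 9 per group in the Mts24 sort. The 8 groups were thus wild type and K14Snail, each as Mts24 negative, Mts24 positive, CD34 negative and CD34 positive cells.

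IGF-like proteins are small, secreted, cysteine-rich proteins with distant similarity to insulin-like growth factors. The mouse protein binds Igflr1, a transmembrane receptor of the tumour necrosis factor (TNF) receptor type, rather than the IGF receptors. In skin the mouse gene is known as one that is induced in keratinocytes of inflamed or wounded epidermis.

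The gene lies on chromosome 7 at 18176494 to 18181862 (GRCm38.p6, plus strand, RefSeq). No build was named for the arrays in the sources used here, so this position serves only to place the sequence. The 250 bases before its annotated start, chr7:18176244-18176493, are shown because the arrays differ in a transcription factor that binds DNA directly. Capitals mark a TATAAA match and an E-box match.

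Igfl3 upstream: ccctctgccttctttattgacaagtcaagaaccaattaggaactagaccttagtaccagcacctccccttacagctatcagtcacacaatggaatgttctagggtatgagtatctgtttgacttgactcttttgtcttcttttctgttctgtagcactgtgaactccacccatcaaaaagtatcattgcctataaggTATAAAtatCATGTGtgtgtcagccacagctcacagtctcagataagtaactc

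TATAAA begins at position -53 from the start, and 12.4% of 32851 RefSeq windows of the same length hold it on either strand. The general E-box CANNTG has 1 match, CATGTG at -44, beside 66.2% of windows with at least 1. The letters CAGGTG, the E-box form that Snail prefers, were searched on both strands and gave 0 matches in the Igfl3 window, against 17.2% of windows with 1 or more. A match here is a description of letters and not of binding.

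The transgene and the sorts followed their labels. Snai1, the gene encoding Snail, stood at 7.86 to 8.16 in the 4 wild type arrays and at 10.84 to 11.04 in the 4 K14Snail arrays (log2 level, adjusted p = 6.11e-05 by limma, higher in 4 of 4 pairs). Cd34 was higher in CD34 positive than in CD34 negative cells by 7.24, and Plet1 was higher in Mts24 positive than in Mts24 negative cells by 3.22. All 9 keratinocyte markers were at or above the filter level of 7.70 in all 8 arrays. Precision is limited by having 1 array per group, and p-values measure the spread between these arrays only.

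In wild type cells Igfl3 had a log2 level of 6.44 in the Mts24 negative array, 7.47 in the CD34 negative array, 8.50 in the CD34 positive array and 10.14 in the Mts24 positive array. In K14Snail cells it stood at 7.86 in Mts24 negative, 11.49 in CD34 negative, 12.54 in Mts24 positive and 12.69 in CD34 positive cells. Each fraction was thus higher in K14Snail than in wild type, but the genotypes overlapped across fractions, because K14Snail Mts24 negative cells held less Igfl3 than wild type CD34 positive and Mts24 positive cells. The levels spanned 6.24 log2 units. No group had a replicate, so neighbours in this order were set against the moderated residual SD of the fit, 0.74. That SD reflects how unequal the genotype differences of the fractions were, so it is not array noise alone. The wild type CD34 negative and K14Snail Mts24 negative levels (0.39 apart), K14Snail Mts24 negative and wild type CD34 positive (0.64 apart) and the K14Snail positive fractions (0.15 apart) differed by less than that SD. The other 4 steps were larger, between 1.02 and 1.65. A step between 2 arrays carries the spread of both, so exceeding the SD of 1 array does not set it beyond noise. Wild type CD34 negative and Mts24 negative cells lay under 7.70, the median of all gene values and the level a gene had to reach in at least 2 arrays to be tested, so the sizes of differences from those arrays depend on the background. In bulk RNA, fewer Igfl3-expressing cells and less Igfl3 RNA per cell cannot be told apart.

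**Figure D1:**
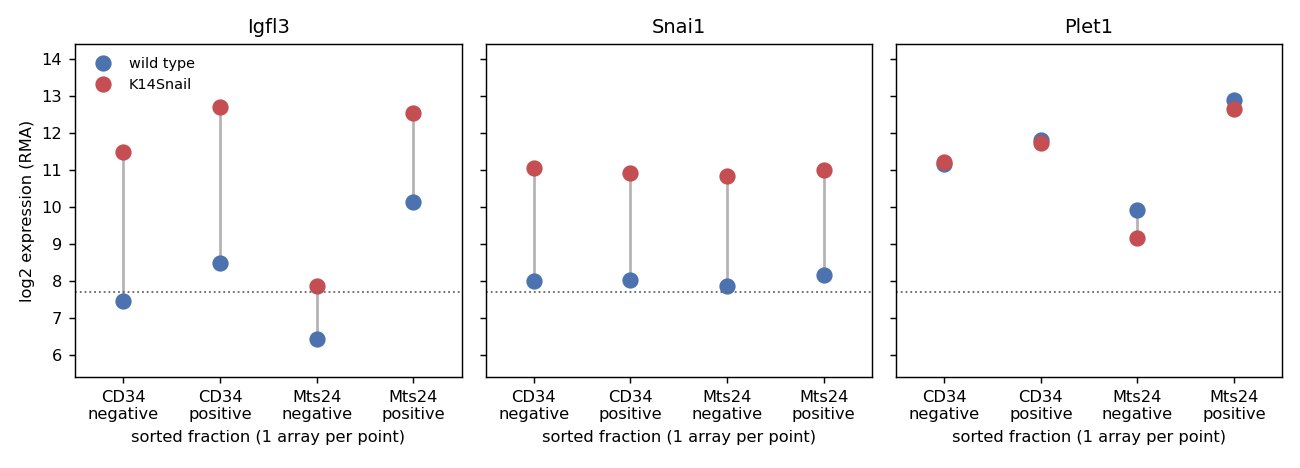
Log2 expression (vertical axis, RMA) of Igfl3, Snai1 and Plet1 in the 4 sorted fractions (horizontal axis), with 1 array per point, wild type in blue and K14Snail in red. Grey lines join the genotypes of a fraction and the dotted line marks the filter level of 7.70. Snai1 is near 11 in every K14Snail array, while Igfl3 spans 7.86 to 12.69 in the same arrays.

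K14Snail minus wild type was 4.02 in CD34 negative cells (16.2-fold) and 4.19 in CD34 positive cells (18.3-fold). Of 10720 genes tested, Igfl3 had the largest positive difference in both of these pairs. In Mts24 positive cells the difference was 2.40 (5.27-fold, rank 12) and in Mts24 negative cells 1.41 (2.67-fold, rank 17). As background, 1.33% of tested genes were at least 2-fold higher in K14Snail in Mts24 positive, 0.466% in Mts24 negative, 2.8% in CD34 positive and 0.457% in CD34 negative cells. The mean of the 4 pairs was 3.01 ± 1.33 (SD, n = 4 pairs), an 8.03-fold difference with a moderated SE of 0.48. The pairs of a sort are taken to share pools, and the fit set the pool correlation at -0.18. That SE therefore probably understates the spread between pools. The mean was the largest of all genes tested, ahead of Snai1 at 2.94. Since these values chose the gene, nothing is read from their ranks.

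The genotype difference was larger in the CD34 sort than in the Mts24 sort, with means of 4.11 and 1.91 over 2 pairs each. This gap of 2.20 has no test, because each combination of genotype and sort is 1 pool of mice. The Snai1 level did not vary in the same way: K14Snail minus wild type for Snai1 was 2.84 in Mts24 positive, 2.98 in Mts24 negative, 2.89 in CD34 positive and 3.05 in CD34 negative cells. Sort, pool and number of mice cannot be told apart in this gap.

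Mts24 positive cells held more Igfl3 than Mts24 negative cells of the same genotype, by 3.70 in wild type (13.0-fold) and by 4.68 in K14Snail (25.7-fold). The mean was 4.19 ± 0.69 (SD, n = 2 pairs), the fourth largest positive Mts24 difference of 10720 genes. At least 2-fold higher were 4.57% of tested genes in the wild type pair and 4.96% in the K14Snail pair. Plet1, whose product carries the sorting antigen, differed by 2.97 and 3.48 in the same pairs. The Mts24 difference of Igfl3 was thus present in cells without the transgene.

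CD34 positive minus negative, a comparison the choice of Igfl3 did not use, was 1.03 in wild type and 1.20 in K14Snail cells. Both pairs went the same way, yet the mean of 1.11 ± 0.80 (limma's SE, 2 pairs) did not pass (limma adjusted p = 0.387, 95% interval -0.87 to 3.10), where limma called 23.7% of tested genes for CD34 in either direction. The interval includes 0 and also values well above the mean, so this fit bounds the CD34 difference only loosely. The 2 pairs had an SD of 0.12, and limma's wider SE comes from the residual spread over all the arrays. With 1 array per group, that spread is how far the 4 genotype differences, 1.41 to 4.19, lie from a common value. It therefore includes the gap between the sorts, whose genotype means were 4.11 and 1.91, and is not array noise alone. Whether positive minus negative differed between genotypes was asked with an interaction term. For Igfl3 this term was 0.58 ± 1.19 (limma adjusted p = 0.952, 95% interval -2.46 to 3.61). Its SE also holds the gap between the sorts. Limma called 0% of genes for the interaction, 0 of 10720, with 845 at an unadjusted p under 0.05. With no pool block it also called 0, with 1060 at an unadjusted p under 0.05.

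Between the sorts, the largest contrast for Igfl3 lay in the negative cells of K14Snail mice. Mts24 negative minus CD34 negative was -3.63 there, the lowest value of all 10720 genes tested, and -1.02 in wild type. By at least 2-fold, 0.578% of tested genes were lower in the K14Snail pair and 0.896% in the wild type pair. Plet1 was lower in the same pairs, at -2.06 in K14Snail and -1.24 in wild type, as was Gata6, an upper follicle transcription factor, at -2.31 and -2.28. Plet1 and Gata6 are examples, and the other upper follicle genes are not given for this contrast. In the positive cells, Mts24 minus CD34 was 1.65 for Igfl3 in wild type but -0.15 in K14Snail. Wild type Igfl3 was therefore highest in Mts24 positive cells, whereas K14Snail cells of both positive fractions and of the CD34 negative fraction all stood at 11.49 or above.

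Marker genes of other cell types were compared with this pattern. The summed level of 12 myeloid and Langerhans cell markers (log2 of the sum) was 11.67 to 13.77 in wild type and 13.06 to 13.69 in K14Snail arrays, with 3 to 10 of 12 markers at or above 7.70. In CD34 negative cells it was lower in K14Snail, 13.06 against 13.68, where Igfl3 was 16.2-fold higher, and in both CD34 and Mts24 positive cells it was higher. The 7 T cell markers summed to 10.63 to 13.40 in wild type and 10.38 to 12.95 in K14Snail, highest in the Mts24 negative arrays, where Igfl3 was lowest within each genotype. Sebaceous gland markers (7) summed to 12.68 to 13.73 in wild type and 11.94 to 13.29 in K14Snail. They were lower in K14Snail in CD34 negative (12.90 against 13.63) and in CD34 positive cells (11.94 against 13.73). The sebaceous sum thus moved with genotype in the sort with the larger Igfl3 difference, and its part in that difference was not tested. Melanocyte markers (6) summed to 9.41 to 10.64 in wild type and 9.37 to 11.52 in K14Snail. The 6 smooth muscle and pericyte markers were highest in K14Snail CD34 positive cells, at 10.91 against 9.66 in wild type, as were the 6 hair shaft and inner root sheath markers, at 10.58 against 9.96. Fibroblast markers summed to 9.91 to 10.75 and neutrophil markers to 8.59 to 9.78 over the 8 arrays. The part of these cells in the Igfl3 differences was not tested. None of 4 mast cell markers reached 7.70 in any array, and of 7 endothelial markers 1 did, in K14Snail CD34 positive cells alone.

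Few genes combined both features. Including Igfl3, 9 of 10720 tested genes (0.084%) were at least 2-fold higher in K14Snail in all 4 fractions, the others being Snai1, Bgn, Cxcl9, Klk6, Sprr1b, Aff2, Ehf and Atp12a. Of these, 5 were also at least 2-fold higher in Mts24 positive cells of both genotypes (0.0466% of tested genes, where 3.13% met the Mts24 condition alone), namely Igfl3, the interferon-induced chemokine Cxcl9, the kallikrein protease Klk6, the epithelial Ets factor Ehf and the proton pump subunit Atp12a. Igfl3 had the widest spread over fractions of the 5, with genotype differences from 1.41 to 4.19. Those of Ehf ran from 1.19 to 1.32 and those of Atp12a from 1.07 to 1.33. Cxcl9 lay between 1.25 and 2.82, and Klk6 between 1.02 and 2.68. These genes were picked by the same contrasts as Igfl3, so their values carry no test.

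**Figure D2:**
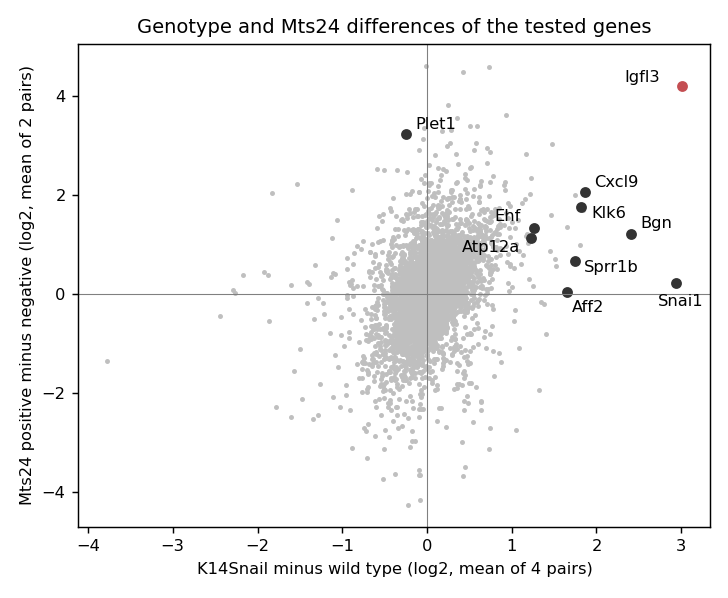
Each point is 1 of 10720 tested genes, with K14Snail minus wild type (log2, mean of 4 pairs) on the horizontal and Mts24 positive minus negative (log2, mean of 2 pairs) on the vertical axis. Igfl3 (red) lies at 3.01 and 4.19, Snai1 at 2.94 and 0.23, and Plet1 at -0.25 and 3.22.

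The receptor passed no test in any contrast. In CD34 negative, Mts24 negative, CD34 positive and Mts24 positive cells in turn, Igflr1 had log2 levels of 7.68, 7.83, 7.88 and 7.96 in wild type and of 7.88, 7.89, 7.78 and 7.98 in K14Snail. These values lie close to the filter level, with 7 of 8 arrays at or above it, and the genotypes overlap. The genotype difference was 0.04 ± 0.06 (limma adjusted p = 0.673), and neither the Mts24 difference of 0.11 (adjusted p = 0.479) nor the CD34 difference of 0.05 (adjusted p = 0.769) passed. A further probe set that Igflr1 shares with the splicing factor gene U2af1l4 ranged from 8.58 to 9.14 and cannot be assigned to either gene.

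Of the other insulin-like ligands, 7 were on the array and none passed the filter. Igf1, Igf2, Ins2, Insl5, Insl6, Rln1 and Rln3 lay between 5.84 and 7.61 in all arrays, with genotype differences of -0.19 to 0.22. Igfl3 was thus the only member of the ligand list that could be tested. Among the receptors for classical ligands, 0 of 3 tested changed with genotype, where limma called 2.05% of all genes with the pool block and 0.382% without: the IGF receptor Igf1r was at 0.11 ± 0.10 (adjusted p = 0.488), the clearance receptor Igf2r at 0.02 (adjusted p = 0.883) and the insulin receptor Insr at 0.03 (adjusted p = 0.846). Insrr lay under the filter, at 5.89 to 6.22. Igf2r was higher in CD34 positive cells by 0.72 (adjusted p = 0.0213).

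IGF binding proteins, which hold IGFs outside the cell, passed no genotype test (0 of 5 tested, where 2.05% of all genes were called). Their median genotype difference was 0.10, against 0.02 over all tested genes, and 4 of the 5 were above 0. The largest were Igfbp6 (0.74 ± 0.19, limma adjusted p = 0.103, higher in 3 of 4 pairs) and Igfbp3. Igfbp3 was at -0.73 ± 0.15 (limma adjusted p = 0.0753), higher in 0 of 4 pairs. In CD34 positive cells 4 of 5 rose, where 12.1% of all genes rose and 11.6% fell: Igfbp5 by 2.82 ± 0.11, Igfbp4 by 1.74, Igfbp6 by 1.65 and Igfbp7 by 1.12. Only Igfbp4 also rose in Mts24 positive cells (2.80, adjusted p = 0.00316), in a list where 1 of 5 did and 11.1% of all genes (22.8% changed in either direction, 11.7% fell). For Igfl3 the CD34 value of 1.11 lay below its Mts24 value of 4.19, as was also the case for Igfbp4. Among adaptors and binding protein proteases 0 of 5 changed with genotype, where 2.05% of all genes did. In Mts24 positive cells 4 of 5 rose and 1 fell, against 11.1% higher and 11.7% lower over all genes. The protease Pappa rose by 1.76, Grb14 by 1.20, Irs2 by 0.60 and Htra1 by 0.59, while the insulin receptor substrate Irs1 fell by 0.79.

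Other secreted growth factors had smaller genotype differences than the 3.01 of Igfl3, which chose that gene. Of 59 listed genes on the array, 32 others were tested, and their genotype differences ran from -1.01 to 0.76 with a median of 0.11. With genotype 1 rose and 3 fell, against 1.14% higher and 0.914% lower over all genes (0.177% and 0.205% with no pool block). Vegfa, the vascular endothelial growth factor, was the one that rose (0.70 ± 0.05, limma adjusted p = 0.0111, 4 of 4 pairs), from 8.09 to 8.76 in wild type to 8.83 to 9.41 in K14Snail, with no overlap. The EGF receptor ligand Epgn fell by 0.93 ± 0.10 (adjusted p = 0.0274), the neurotrophic factor Gdnf by 0.64 ± 0.06 (adjusted p = 0.0225) and Bmp2 by 0.67 ± 0.11 (adjusted p = 0.0474). Bmp2 did not pass with no pool block (adjusted p = 0.0860). Larger differences that did not pass were those of the EGF family ligand Btc (-1.01 ± 0.17, adjusted p = 0.0522), Fgf18 (-0.89 ± 0.22, adjusted p = 0.0952) and the Kit ligand Kitl (0.76 ± 0.17, adjusted p = 0.0838). In Mts24 positive cells 12 of 32 rose and 4 fell, against 11.1% higher and 11.7% lower over all genes.

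**Figure D3:**
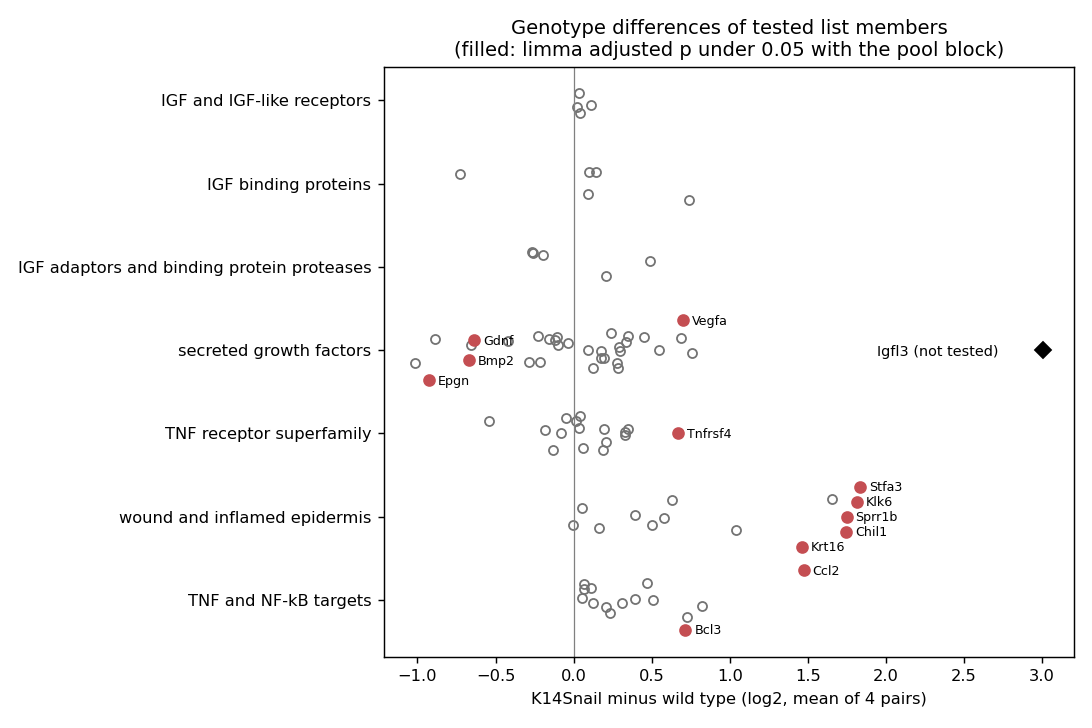
K14Snail minus wild type (log2, mean of 4 pairs, horizontal axis) for each tested member of 7 gene lists (rows). Filled points passed limma's adjusted p of 0.05 with the pool block, open points did not, and the diamond is Igfl3, given without a test. Vertical position within a row has no meaning. The 32 other growth factors lie between -1.01 and 0.76, while Igfl3 is at 3.01.

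Wounded and inflamed epidermis is the setting in which Igfl3 is known to be induced. Of 25 listed genes of that setting on the array 14 were tested, and with genotype 5 rose and 0 fell, against 1.14% higher and 0.914% lower over all genes. With no pool block 1 rose, against 0.177% of all genes. This list was chosen with earlier results of these data known, so its counts are descriptions and not independent evidence. Klk6 and Sprr1b are also among the genes picked above by their genotype differences. The median difference of the 14 was 0.83, against 0.02 over all genes, and the lowest was -0.01, for the envelope precursor Sprr1a. The 5 that rose were the protease inhibitor Stfa3 (1.84 ± 0.26), whose close paralogs can share its probe signal, Klk6 (1.81 ± 0.25), the cornified envelope precursor Sprr1b (1.75 ± 0.10), the chitinase-like Chil1 (1.75 ± 0.26) and the hyperproliferation keratin Krt16 (1.46 ± 0.23). With no pool block only Sprr1b of them passed (adjusted p = 0.0121). Their genotype differences were not ordered like those of Igfl3: Stfa3, Krt16 and Chil1 differed most in Mts24 positive cells (2.85, 2.42 and 2.69) and Klk6 most in CD34 negative cells (2.68). In Mts24 positive cells 9 of 14 rose and 0 fell (median 1.34), against 11.1% higher and 11.7% lower over all genes. Lcn2 stood at 1.66 ± 0.35 for genotype without passing (adjusted p = 0.0763), and the alarmins S100a8 and S100a9 did not pass the filter.

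TNF is an inflammatory cytokine of the skin, and of its receptor superfamily, to which Igflr1 is related, 1 of 16 tested genes rose with genotype and 0 fell, against 1.14% and 0.914% of all genes. This was Tnfrsf4 (0.67 ± 0.09, limma adjusted p = 0.0376, but 0.0729 with no pool block), a costimulatory receptor. Of 15 tested TNF and NF-kB targets 2 rose and 0 fell, against the same shares of all genes: the monocyte chemokine Ccl2 (1.47 ± 0.20, adjusted p = 0.0375) and the IkB family member Bcl3 (0.72 ± 0.10, adjusted p = 0.0375). With no pool block neither passed (adjusted p = 0.0686 each), where 0.177% of all genes were called higher and 0.205% lower. All 15 had positive genotype differences, with a median of 0.31. That count is a description, since this list too was chosen with earlier results of these data known. The median over all tested genes was also above 0, at 0.02. Tnf itself was at 0.51 ± 0.15 (adjusted p = 0.119), Tnfaip3 at 0.23 (adjusted p = 0.232) and Nfkbia at 0.07 (adjusted p = 0.591). Upper follicle genes, 9 of which were tested and which include Plet1 itself, all rose with Mts24 (median 2.17), where 11.1% of all genes did, and 0 of 9 were called for genotype. Of 11 bulge genes, Cd34 among them, 10 rose with CD34, where 12.1% of all genes did, and 0 were called for genotype. For genotype 2.05% of all genes were called, so counts of 0 in lists of this size say little. With Mts24 9 of the same 11 rose too (median 1.43), Cd34 itself by 1.57 (limma adjusted p = 0.0107). Of all genotype calls named here, only that of Snai1 held whichever of the 8 arrays was left out. Leaving out either array of a fraction takes that fraction out of the genotype difference. These were therefore 4 distinct checks, each with fewer residual degrees of freedom. The calls of Snai1, Vegfa, Epgn, Gdnf and Sprr1b held with no pool block. That fit counts the arrays of a pool as independent, so it does not cover the spread between pools.

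The genes nearest in chromosome order were compared to see whether the difference extended along the chromosome. Of the 6 protein-coding neighbours on either side in the RefSeq order, 11 of 12 lay between 3.98 and 5.50 in all arrays and did not pass the filter. Among these were the carcinoembryonic antigen genes Ceacam12 and Ceacam13 next to Igfl3, with genotype differences of 0.14 and -0.11. Mill1, a class I-like gene and the next gene on the other side, was expressed, at 10.38 to 11.54 in wild type and 10.71 to 12.22 in K14Snail. It rose in Mts24 positive cells by 1.33 ± 0.24 (limma adjusted p = 0.0160), while its genotype difference of 0.61 ± 0.14 did not pass (adjusted p = 0.0871). Mill1 was higher in K14Snail in 4 of 4 pairs, by 0.22 in CD34 negative cells (Igfl3 4.02), 1.19 in CD34 positive cells (Igfl3 4.19), 0.33 in Mts24 negative cells (Igfl3 1.41) and 0.68 in Mts24 positive cells (Igfl3 2.40).

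The pattern of Igfl3 over the 8 arrays was compared with that of 2863 other tested genes whose range was at least 1 log2 unit. The measure was Pearson's r of log2 level, given as a description, since the points share arrays and fall into genotypes and sorts. The 10 highest were Ube2l6 (r = 0.983), which conjugates the interferon-induced modifier Isg15, the interferon-induced Xaf1 (0.966), the replication factor subunit Rfc5 (0.962), the interferon receptor chain Ifnar2 (0.958), the necroptosis kinase Ripk3 (0.957), Rassf9 (0.952), the RNA sensor Ddx58 (0.950), Zmynd15 (0.948), the procollagen protease Bmp1 (0.944) and the carbonic anhydrase Car12 (0.943). Ube2l6 stood at 7.45, 7.95, 8.27 and 8.62 in wild type Mts24 negative, CD34 negative, CD34 positive and Mts24 positive cells. In K14Snail cells it stood at 8.11, 8.76, 9.20 and 9.24 in the same order. Its span of 1.78 was far below the 6.24 of Igfl3, and so were those of the other 9, at 1.07 to 3.51. Likeness in shape therefore did not mean likeness in size.

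By the root mean square distance between mean-centred profiles, which also counts size, the nearest genes were Ccl2 (1.16 log2 units), Cxcl9 (1.21), the gasdermin Gsdma3 (1.28) and Car12 (1.29). Car12 was the 1 gene among the 10 nearest by both measures. It went from 8.33 in wild type Mts24 negative cells to 11.84 in K14Snail Mts24 positive cells. The lowest correlations were those of Marchf9 (-0.964), the fatty acid elongase Elovl6 (-0.957), the motor adaptor Hook1 (-0.951), Abhd3 (-0.950) and the receptor kinase Tyro3 (-0.946). A measure added later centred each gene within each genotype before taking r, which leaves the differences between fractions within a genotype. By that measure the matrix protease Adamts5 (r = 0.997), Col8a1 (0.984) and again Ube2l6 (0.970) were highest over 2496 genes. The lowest were Msmo1 (-0.977), Prss53 (-0.975), Dhcr7 (-0.971), Elovl6 (-0.958) and Mvd (-0.950), of which Msmo1, Dhcr7 and Mvd encode enzymes of cholesterol synthesis.

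**Figure D4:**
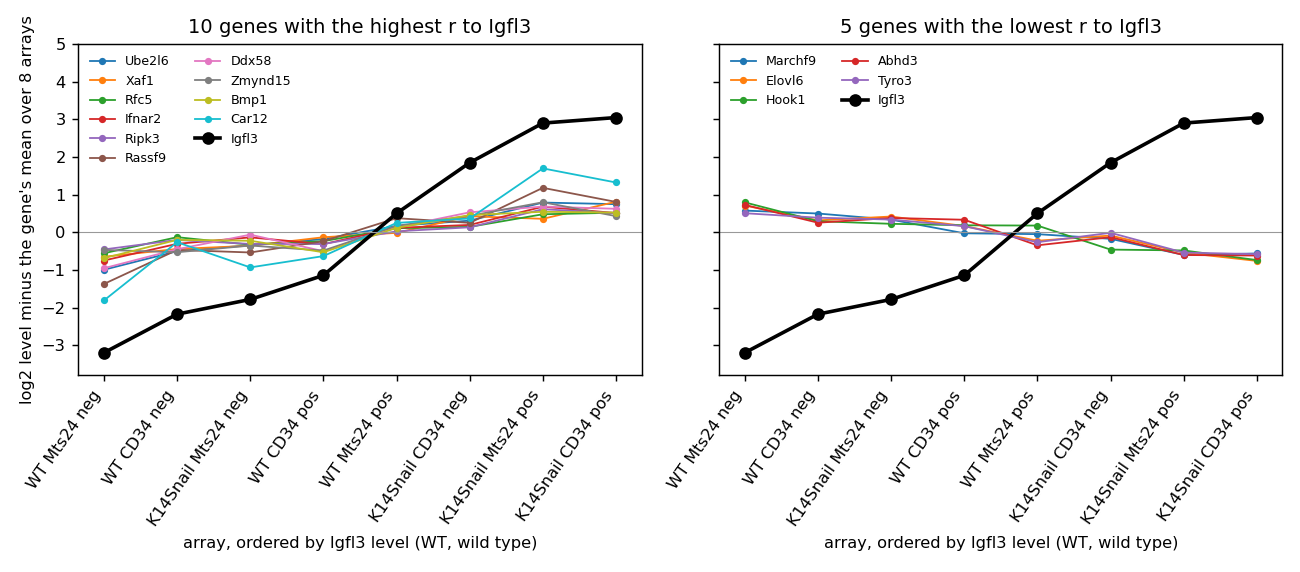
Log2 level minus the gene's mean (vertical axis) in the 8 arrays, ordered from the lowest to the highest Igfl3 level (horizontal axis, 1 array per point). Igfl3 is in black beside the 10 genes with the highest r (left) and the 5 with the lowest (right). The coloured lines turn with Igfl3 or against it but span 1.07 to 3.51 log2 units, against 6.24 for Igfl3.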

How the data were processed

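The authors deposited log2 values per probe set made with RMA, per the submitters' processing notes; no version or genome build was given in the sources used here. Values ran from 3.04 to 14.49, which fits a log2 scale, with array medians of 7.32 to 7.42. Of 28874 probe sets, 21789 had 1 gene symbol, 1621 several and 5464 none; 21698 matched current names by Entrez identifier. For 999 genes with several probe sets the brightest was used. Genes with at least 2 arrays at or above 7.70 were tested (10720).

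Limma 3.58.1 (R 4.3.3, statmod 1.5.0) fitted terms for the 4 fractions and for genotype, taking each of the 4 pools as a random block (consensus correlation -0.18, 3 residual degrees of freedom); a further model added genotype by positive fraction. P-values are two-sided and Benjamini-Hochberg adjusted over all tested genes, at 0.05. That the positive and negative cells share mice is inferred from equal pool sizes. The script was tested on simulated independent arrays, where the pool correlation was also estimated below 0. Genotype calls there were false more often than with no pool block, so calls lost without the block are named. Those arrays shared no pool effect, so the simulation does not show that calls kept without the block hold between pools. Named genes were Igfl3, the transgene and sort checks, the 10 highest and 5 lowest by likeness, all insulin-like ligands and receptors, and list members past the threshold or largest in difference; further genes are named after their values were seen. The members and lists were chosen with earlier results of these data known. Alternatives were no pool block, quantile normalization, no filter, a trended robust prior, probe set means, a 4-fold limit, another likeness measure and leaving out each array. Python 3.11.15, pandas 2.3.3 and scipy 1.17.1 made the tables, and motifs were searched by exact match.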

Additional observations from a re-analysis of the deposited data

How the results depend on the processing

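The Igfl3 genotype and Mts24 differences kept their direction under every alternative run. Over the arrays left out in turn, with the pool correlation held at the full fit's value, the Igfl3 genotype difference was 2.52 to 3.61, the Mts24 difference 2.99 to 5.39 and the CD34 difference 0.15 to 2.08. With 1 array of a fraction left out, the level of that fraction is set through the common genotype term. The Mts24, CD34 and interaction ranges therefore also carry the unequal genotype differences of the CD34 and Mts24 sorts. The pairs themselves gave 3.70 and 4.68 for Mts24 and 1.03 and 1.20 for CD34. The interaction term was -0.89 to 2.04: it turned to -0.55 without either CD34 positive array and to -0.89 without either Mts24 negative array, and never passed. Within the CD34 sort the genotype difference was 4.11 and within the Mts24 sort 1.91.

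The count of genes changed with genotype was 220, but 41 with no pool block and 5 to 75 whichever array was left out; the pathway list members among them numbered 12, then 4, and 0 to 7. Of 13 named genotype calls, Snai1, Vegfa, Epgn, Gdnf and Sprr1b were kept with no pool block, and only Snai1 under every array left out. For genotype the arrays left out give 4 distinct checks, 1 per fraction, each with fewer residual degrees of freedom. A lost call therefore need not rest on 1 array. The count for Mts24 was 2448 and 661 to 2897, lowest without the Mts24 arrays, and that for CD34 2542 and 1154 to 2280. At a log2 difference of 2 instead of 1 the counts by pair fell from 92 to 22 in CD34 negative, 530 to 84 in CD34 positive, 79 to 6 in Mts24 negative and 205 to 19 in Mts24 positive cells. By distance in place of r, 1 of the 10 most alike genes stayed. Wild type and K14Snail arrays were already paired by the fraction terms and blocked by pool, and the labels carry no replicate numbers for a further block. With 1 array per group, differences from arrays under 7.70 are limited by signal over background.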
